A study of Homo sapiens with 2 samples.

Results

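Gut-typical genes were examined in 22Rv1, a human prostate cancer cell line that grows without added androgen, by RNA-seq of total RNA. The 9 genes are typical of intestinal epithelium and encode mostly surface and secreted proteins, besides the actin-binding villin (VIL1) and isomerases of the endoplasmic reticulum (AGR2 and AGR3): REG4, CDH17, TSPAN8, LGALS4, MUC13, VIL1, SPINK1, AGR2 and AGR3. They were taken by name from a table of 57351 gene symbols, and they were chosen by their TPM in these same libraries, as gut genes mostly higher after EIF3F knockdown. Their own ratios are therefore a description and no test. One group expressed a control short hairpin RNA vector (shCON) and the other a short hairpin RNA against EIF3F (shEIF3F), one of the subunits of the eIF3 complex that helps ribosomes start on mRNA. Neither group was replicated (1 library each), so no difference below has an error or a p-value. With 1 shEIF3F library, effects of the hairpin other than loss of EIF3F cannot be told apart from it. The labels name no clone, passage or time after the hairpin was introduced.

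The intestinal lining is a sheet of absorptive enterocytes, with an actin-filled brush border, and of goblet cells that fold and release mucus proteins. Its cells carry a typical set of adhesion molecules, membrane mucins and lectins. Several of these proteins also appear in cancers of other organs, prostate among them, where SPINK1 marks a subset of tumours and AGR2 is often found.

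The sequences just before the gene starts are shown to let promoters of the gut-typical genes be compared. They include AGR3, which was too low in both libraries to be counted as higher. RefSeq starts on GRCh38.p14 were used for 7 of the 9 genes, and the promoters of CDH17 and VIL1 were not used. Each line gives the 150 bases before the start, 5′ to 3′ on the gene's strand, which is the minus strand in every case. Capitals mark matches to 5 short motifs: TATAA (the TATA box core, on the gene's strand, 20 to 45 bases before the start), and on both strands TTTATNG (CDX), CAAAGTCCA (HNF4) and TGTTTAC (FOXA). The motif of the GATA factors, also sought on both strands, was AGATAA. The windows lie at chr1:119811461-119811610 for REG4, chr7:16805000-16805149 for AGR2, chr7:16881984-16882133 for AGR3, chr12:71158000-71158149 for TSPAN8, chr19:38812946-38813095 for LGALS4 and chr3:124934752-124934901 for MUC13. SPINK1, at chr5:147831672-147831821, held no match and is not printed.
REG4: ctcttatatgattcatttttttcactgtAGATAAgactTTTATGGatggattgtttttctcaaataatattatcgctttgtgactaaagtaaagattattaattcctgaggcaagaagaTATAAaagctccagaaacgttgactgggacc
AGR2: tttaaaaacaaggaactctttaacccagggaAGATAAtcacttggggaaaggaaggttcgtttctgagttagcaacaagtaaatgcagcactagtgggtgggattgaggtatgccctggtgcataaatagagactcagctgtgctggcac
AGR3: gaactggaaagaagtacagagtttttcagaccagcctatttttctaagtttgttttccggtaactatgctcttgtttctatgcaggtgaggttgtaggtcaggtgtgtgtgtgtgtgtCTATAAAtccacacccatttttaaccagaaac
TSPAN8: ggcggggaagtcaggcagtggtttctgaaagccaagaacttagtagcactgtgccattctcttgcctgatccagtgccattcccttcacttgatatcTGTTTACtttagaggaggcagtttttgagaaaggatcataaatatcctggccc
LGALS4: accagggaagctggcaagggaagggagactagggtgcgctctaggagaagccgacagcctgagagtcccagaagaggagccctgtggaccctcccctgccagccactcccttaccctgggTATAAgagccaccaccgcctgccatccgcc
MUC13: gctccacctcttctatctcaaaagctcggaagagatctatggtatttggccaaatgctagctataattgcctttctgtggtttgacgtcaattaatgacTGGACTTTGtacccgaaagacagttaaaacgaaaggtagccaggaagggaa

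Matches differed from promoter to promoter. TATAA stood 31 bases before the start in REG4 and AGR3 and 30 bases before it in LGALS4, so in 3 of 7 genes, against 4.01% of 35116 RefSeq promoters. AGR3 is among the 3 but not among the genes counted as higher. The AGR2 window, by contrast, held no TATAA at that place. The CDX letters were found in REG4 and AGR3 (5.33% of all promoters), and in AGR3 they lie over the TATA box core. The GATA letters were found in REG4 and AGR2 (5.17%), the FOXA letters in TSPAN8 (1.73%) and the HNF4 letters in MUC13 (0.222%). Of the 7 windows, 6 had a GC content below the 60.0% median of all promoters, from 31.3% in REG4 upward, and LGALS4 was above it at 64.0%. A match describes letters in a window and shows no binding.

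EIF3F stood at 990.9 TPM in shCON cells against 17.0 TPM in shEIF3F cells, in the direction of the labels. TPM is a transcript level corrected for transcript length and library size, so levels of different genes can be set side by side. The log2 ratio used throughout is log2((shEIF3F TPM + 1) / (shCON TPM + 1)), and a gene at 1 or more was counted as at least 2-fold higher. Genes averaging 1 TPM or above in the pair of libraries, 13304 in all, are called measured below. Their median log2 ratio was -0.36. In shEIF3F, 8.43% of them were higher by 2-fold or more and 25.5% lower by as much. Genes higher made up 24.8% of those past 2-fold as deposited, 47.9% after centring on that median, 48.1% after rescaling without the 100 most abundant genes and 48.7% with a GC trend removed. All 10 prostate luminal markers reached a mean of 1 TPM. Depth is unknown, since TPM keeps no read number.

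Of the 9 gut-typical genes, 8 reached a mean of 1 TPM. At least 2-fold higher in shEIF3F were 7 of these 8, against 8.43% of all genes, and 0 were at least 2-fold lower, against 25.5%. The rule used this contrast, so nothing is read from those shares. The 8 genes had a median log2 ratio of 2.03, or 2.39 relative to the median of all genes. Together the 9 genes summed to 213 TPM in shCON cells against 534 TPM in shEIF3F cells. In bulk RNA, more cells that express a gene and more RNA per cell cannot be told apart.

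**Figure D1:**
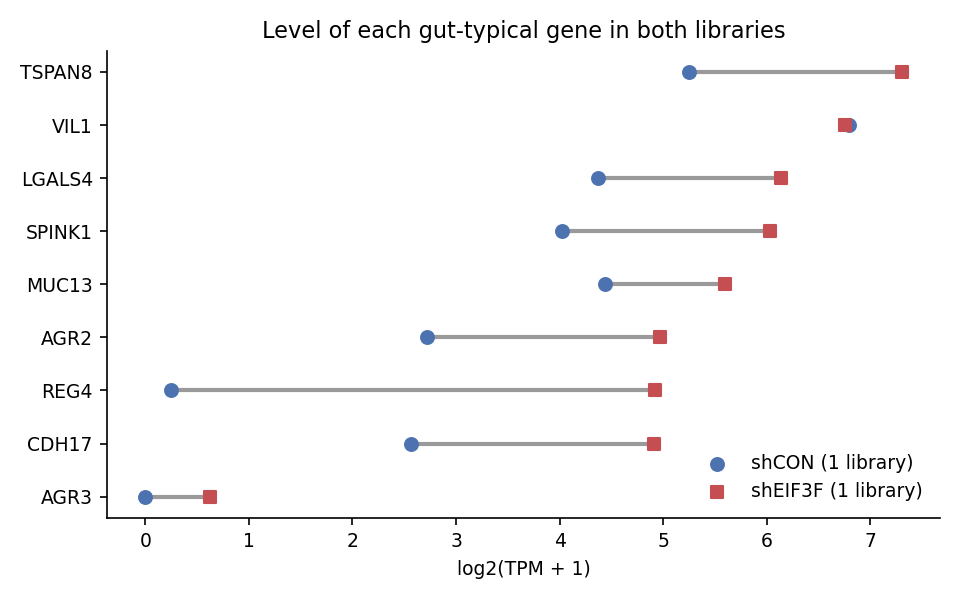
Level of each of the 9 genes as log2(TPM + 1), with a circle for the shCON library and a square for the shEIF3F library, 1 library each. REG4 spans the widest gap, from 0.19 to 29.4 TPM, while the markers of VIL1 nearly coincide at 109.8 and 107 TPM.

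Among the secreted proteins, REG4 had the highest log2 ratio, and SPINK1 the larger difference in TPM of the pair (48.8 against 29.2 TPM). REG4 is a small lectin-like protein released by cells of the gut lining. It stood at 0.19 TPM in shCON cells against 29.4 TPM in shEIF3F cells, a log2 ratio of 4.67, the rank 13 of 13304 genes from the top. Its level in shCON was close to absence, ranking 17662 among 51272 symbols without date-like and small RNA ones, whereas in shEIF3F it ranked 2500. The size of the ratio hangs on the added constant, at 2.73 with 5 TPM added and 6.67 with 0.1 TPM added. SPINK1, a trypsin inhibitor that acinar cells of the pancreas release with their enzymes, was already present in shCON at 15.3 TPM. It reached 64.1 TPM in shEIF3F, 4.19 times as much (rank 233), or a log2 ratio of 2.36 relative to the median of all genes.

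AGR2 and AGR3 are sister genes, next to each other among protein-coding genes on chromosome 7, and encode disulfide isomerases of the endoplasmic reticulum. AGR2 is needed for mucus proteins to fold in goblet cells. AGR2 stood at 5.57 TPM in shCON cells against 30.2 TPM in shEIF3F cells, a log2 ratio of 2.25 (rank 165). AGR3 was listed at 0 in shCON and at 0.54 TPM in shEIF3F. Its mean of 0.27 TPM is below the minimum, so it enters no count and no fold is given. The sister genes thus lay far apart in level in both libraries, with AGR2 the one expressed.

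Of the surface proteins, TSPAN8 differed most in TPM. TSPAN8 is a tetraspanin, a class of small membrane proteins that gather integrins and other partners into membrane domains. It went from 36.9 TPM in shCON to 157 TPM in shEIF3F, a difference of 120.0 TPM and a log2 ratio of 2.06 (rank 211). It was the most abundant of the 9 genes in shEIF3F, with 29.4% of their summed TPM, and the second in shCON after VIL1. CDH17, the liver-intestine cadherin that joins the side walls of enterocytes, stood at 4.91 and 29.2 TPM, a log2 ratio of 2.35 (rank 140). CDH17 was thus low in shCON and ended level with REG4 and AGR2, the 3 genes lying between 29.2 and 30.2 TPM in shEIF3F.

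LGALS4 and MUC13 act at the sugar coat of the cell. LGALS4 encodes galectin-4, which binds glycans and helps carry proteins to the apical membrane. It stood at 19.6 TPM in shCON cells against 69.2 TPM in shEIF3F cells, a log2 ratio of 1.77 (rank 327). MUC13, a membrane-bound mucin, started at nearly the same level, 20.7 TPM, but reached 47.2 TPM, a log2 ratio of 1.15 (rank 866). MUC13 was the nearest to the 2-fold line of the 7 genes past it, at 2.28 times its shCON level.

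VIL1 was the exception. It encodes villin, which bundles and cuts actin filaments in the core of microvilli. VIL1 stood at 109.8 TPM in shCON cells against 107 TPM in shEIF3F cells, a log2 ratio of -0.03 (rank 4799). It was already the most abundant of the 9 genes in shCON, with 51.5% of their summed TPM, and held 20.1% in shEIF3F. Without VIL1, the other 8 genes summed to 103 TPM in shCON cells against 427 TPM in shEIF3F cells. Its sign depends on the scaling, at 0.32 after centring, 0.40 after rescaling and 0.066 with the GC trend removed. Exons of USP37 lie on the opposite strand over those of VIL1, so reads of the pair could mix if counting ignored strand. None of the other 8 genes shares an exon with another gene in GENCODE release 29.

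From high to low, the order in shCON was VIL1, TSPAN8, MUC13, LGALS4, SPINK1, AGR2, CDH17, REG4 and AGR3. In shEIF3F it was TSPAN8, VIL1, LGALS4, SPINK1, MUC13, AGR2, REG4, CDH17 and AGR3. With 1 library each, neighbours in either order cannot be separated from each other by a spread.

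**Figure D2:**
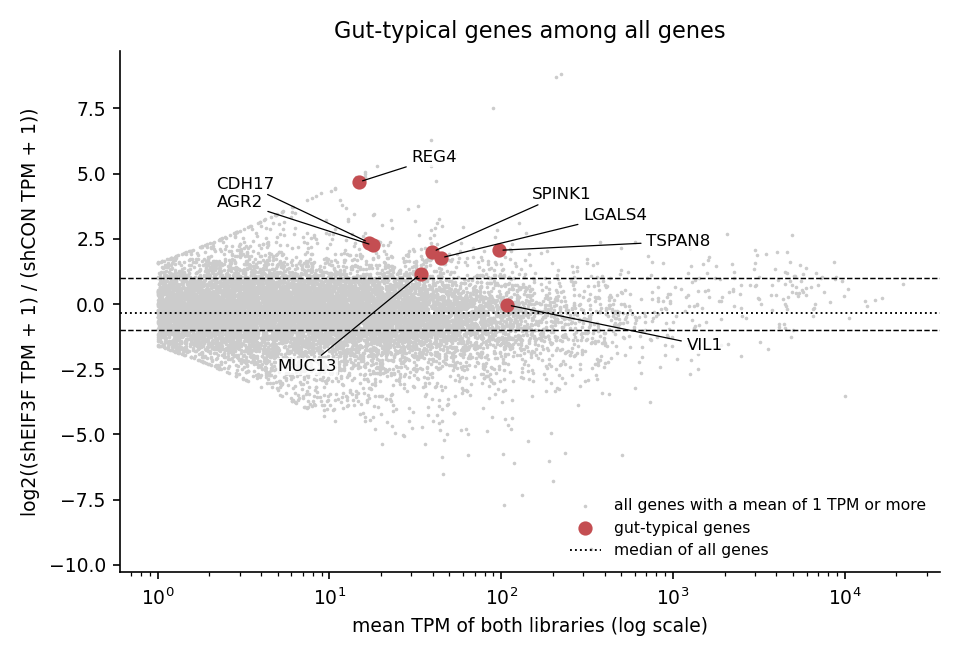
Log2 ratio of TPM + 1 (y axis) against the mean TPM of both libraries on a log scale (x axis) for 13304 genes in grey, with the 8 measured gut-typical genes in red. Dashed lines mark 1 and -1 and the dotted line the median of all genes at -0.36. The 7 genes above the upper dashed line range from 1.15 for MUC13 to 4.67 for REG4, and VIL1 lies at -0.03.

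The other genes of gut epithelium were described from 4 lists, with the 9 genes left out. Each count is to be read beside the 8.43% of all genes at least 2-fold higher and the 25.5% at least 2-fold lower, and with so few genes a list nothing particular to a list is read from it. MUC2, TFF3, KRT20, SI, CEACAM1, CLDN15, GPA33, CEACAM5, CDX2, HNF4A, PDIA3 and P4HB are named below after their values were seen. Goblet and secretory genes were mostly near absence. Of 17 listed, 4 reached a mean of 1 TPM, 1 was at least 2-fold higher and 0 lower. That gene was KLF4, a transcription factor of goblet cell maturation, at 2.25 TPM in shCON cells against 6.17 TPM in shEIF3F cells (log2 ratio 1.14). SPDEF, the goblet and prostate transcription factor, stood at 36.8 and 30.6 TPM, the mucus-bound protein FCGBP at 2.53 and 1.51 TPM and CREB3L1 at 1.55 and 0.92 TPM. The main gel-forming mucin of the gut, MUC2, was among 8 genes listed at 0 in both libraries, and the trefoil peptide TFF3 was at 0 and 0.16 TPM. The 4 measured genes had a median log2 ratio of -0.33, beside -0.36 for all genes.

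Brush border and absorptive genes were past 2-fold at shares near those of all genes. Of 32 in the table, 8 reached a mean of 1 TPM, of which 1 was at least 2-fold higher and 2 lower (8.43% and 25.5% of all genes), with a median log2 ratio of -0.21. MYO1A, a myosin that ties the actin core to the microvillus membrane, stood at 3.96 TPM in shCON cells against 9.51 TPM in shEIF3F cells (log2 ratio 1.08), and shares exons with TAC3. CDHR2, a protocadherin that links the tips of microvilli, stood at 48.0 and 6.22 TPM (-2.76). ESPN, an actin bundler, stood at 3.19 and 0.67 TPM (-1.33), though it was within 2-fold after centring (-0.97) or once the GC trend was taken out (-0.18). PLS1, the plastin that packs actin beside villin, was within 2-fold at 1.09 and 2.09 TPM. Of the genes below the minimum, 9 were listed at 0 in both libraries, and KRT20 and the disaccharidase SI were at or below 0.07 TPM.

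Of 24 surface and adhesion genes listed, 11 reached a mean of 1 TPM, with 4 at least 2-fold higher (8.43% of all genes), 2 lower (25.5% of all genes) and a median log2 ratio of 0.43. EPCAM, an epithelial adhesion molecule, stood at 17.5 TPM in shCON cells against 60.5 TPM in shEIF3F cells (1.73). CEACAM6, a cell surface glycoprotein, stood at 3.49 and 11.4 TPM (1.47), the tight junction gene CLDN3 at 9.36 and 26.1 TPM (1.39), and the membrane mucin MUC3A at 1.25 and 4.74 TPM (1.35). CEACAM1 stood at 17.0 and 6.33 TPM (-1.30) and CLDN15 at 8.31 and 3.14 TPM (-1.17) and both were within 2-fold after centring (-0.94 and -0.81). CEACAM and MUC3A have close relatives in sequence, so reads could be split and these values are uncertain. The gut antigen GPA33 and CEACAM5 were at or below 0.04 TPM in either library.

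Among 21 transcription factors of gut epithelium, 11 reached a mean of 1 TPM, with 4 at least 2-fold higher (8.43% of all genes), 0 lower (25.5% of all genes) and a median log2 ratio of 0.42. ELF3, an epithelial ETS factor, stood at 17.8 TPM in shCON cells against 59.0 TPM in shEIF3F cells (1.68). SOX9, a factor of crypt progenitors, stood at 3.46 and 11.3 TPM (1.46), the endodermal factor GATA6 at 3.37 and 10.4 TPM (1.39), and KLF4 as above. ELF3 and GATA6 have antisense genes over their exons, as do CDHR2, ESPN, MUC3A, GSN, FLII, SCIN, LGALS8, CDH8, ERP29 and TXNDC12 among the genes named from the lists and families. ELF3, CEACAM6, SCIN and TXNDC12 also share exons with a gene on their own strand, so all these values carry that doubt. The intestinal master regulator CDX2 was near absence at 0.31 and 0.01 TPM, and HNF4A at 0.04 and 0.13 TPM.

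**Figure D3:**
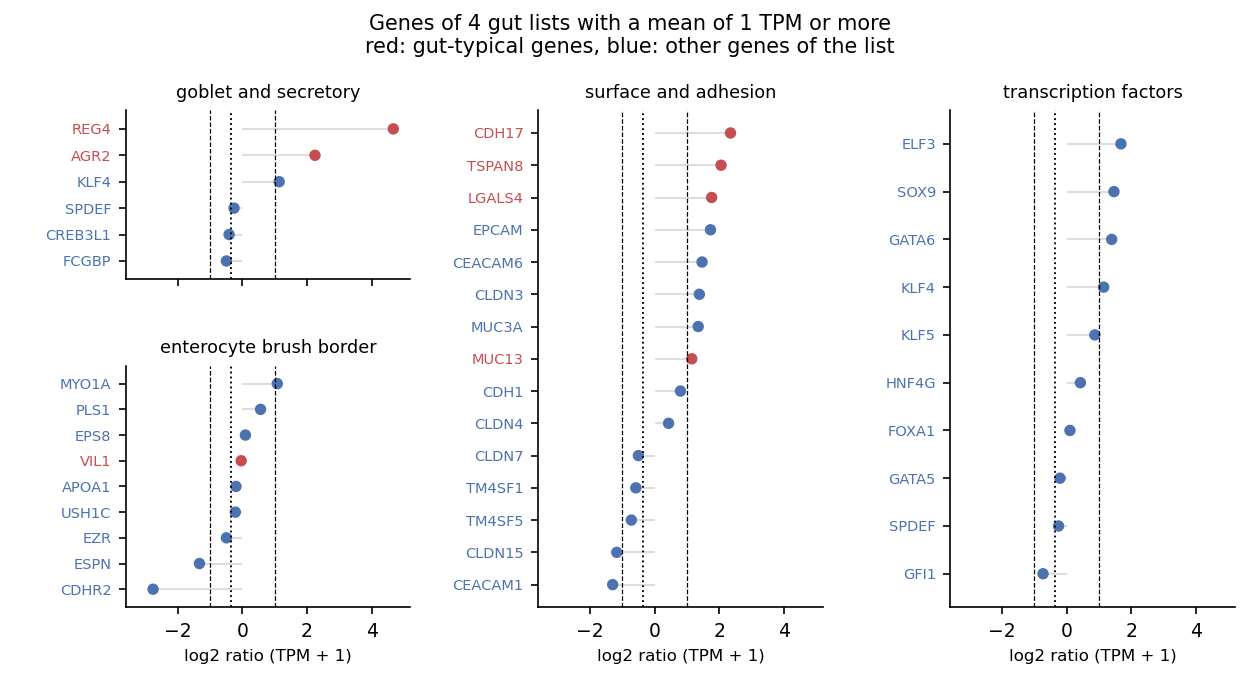
Log2 ratio of TPM + 1 (x axis) of each measured gene in 4 gut lists, 1 transcription factor not drawn, red for the gut-typical genes and blue for the others. Dashed lines mark 1 and -1 and the dotted line the median of all genes at -0.36. Of the blue genes, 4 of 11 in the surface list and 1 of 8 in the brush border list lie above the upper line.

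Each gut-typical gene was also set beside its protein family. The REG and SPINK families were represented almost by the single genes. REG1A was at 0 and 0.12 TPM and the remaining 3 REG genes were listed at 0 in both libraries. Of 9 other SPINK genes only SPINK2 reached the minimum, at 1.85 TPM in shCON cells against 2.42 TPM in shEIF3F cells (log2 ratio 0.26), and 7 were listed at 0 in both. Of 3 measured galectins other than LGALS4, 0 were at least 2-fold higher and 2 lower, against 8.43% and 25.5% of all genes. LGALS1, the galectin of mesenchymal cells and the most abundant one in shCON, stood at 331.0 and 32.2 TPM (-3.32), and LGALS2 at 2.05 and 0.27 TPM (-1.26, within 2-fold after centring at -0.91 and without the GC trend at -0.74). LGALS8 was at 5.07 and 8.75 TPM (0.68 as deposited, 1.04 after centring), so LGALS4 went from the second most abundant galectin to the first.

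Of 19 measured tetraspanins other than TSPAN8, 3 were at least 2-fold higher and 4 lower, against 8.43% and 25.5% of all genes. TSPAN3 stood at 59.7 TPM in shCON cells against 231 TPM in shEIF3F cells (1.93) and TSPAN31 at 11.8 and 45.3 TPM (1.85), whereas CD151, a partner of laminin-binding integrins, stood at 235 and 61.9 TPM (-1.91) and the leukocyte tetraspanin CD37 at 2.78 and 0.15 TPM (-1.72). The other 2 lower ones, TSPAN9 and TSPAN17, were named after their values were seen. With the GC trend removed, 0 of the 4 stayed past 2-fold: CD151 was at -0.99, CD37 at -0.95, TSPAN9 at -0.93 and TSPAN17 at -0.47, and TSPAN17 was within 2-fold after centring too (-0.87). CD151, CD37, TSPAN3 and TSPAN31 have antisense genes over their exons. Of 15 other mucins, MUC3A alone reached the minimum and 8 were listed at 0 in both libraries. Of 7 other cadherins measured, CDH12 was at 1.09 and 4.61 TPM (1.42), CDH24 at 16.7 and 2.12 TPM (-2.51), CDH22 at 1.78 and 0.33 TPM (-1.06, but -0.71 after centring, and 0.08 without the GC trend) and CDH8 at 4.33 and 1.67 TPM (just within 2-fold).

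The relatives of villin and of AGR2 came next. GSN, the actin-severing gelsolin, stood at 4.27 TPM in shCON cells against 15.2 TPM in shEIF3F cells (1.62), FLII at 263 and 474 TPM (0.84, past 2-fold after centring), CAPG at 32.6 and 20.2 TPM (-0.67) and SCIN at 3.54 and 1.26 TPM (-1.01, but -0.65 after centring). VIL1 was thus one of 3 genes within 2-fold among the 5 measured. Of 17 disulfide isomerases other than AGR2 and AGR3 that were measured, 0 were at least 2-fold higher and 5 were lower by as much, a share near the 25.5% of all genes. PDIA4 stood at 383 and 109 TPM (-1.81), PDIA2 at 3.15 and 0.27 TPM (-1.71), TXNDC12 at 21.2 and 6.70 TPM (-1.53) and ERP29 at 149 and 51.9 TPM (-1.50). The fifth, PDIA3, was at 378 and 158 TPM (-1.25, but -0.90 after centring), and PDIA2 was within 2-fold with the GC trend removed (-0.95). The 17 genes had a median log2 ratio of -0.33, beside 2.25 for AGR2 itself and -0.36 for all genes. P4HB, the founding member of the family, stood at 543 and 512 TPM (-0.09).

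**Figure D4:**
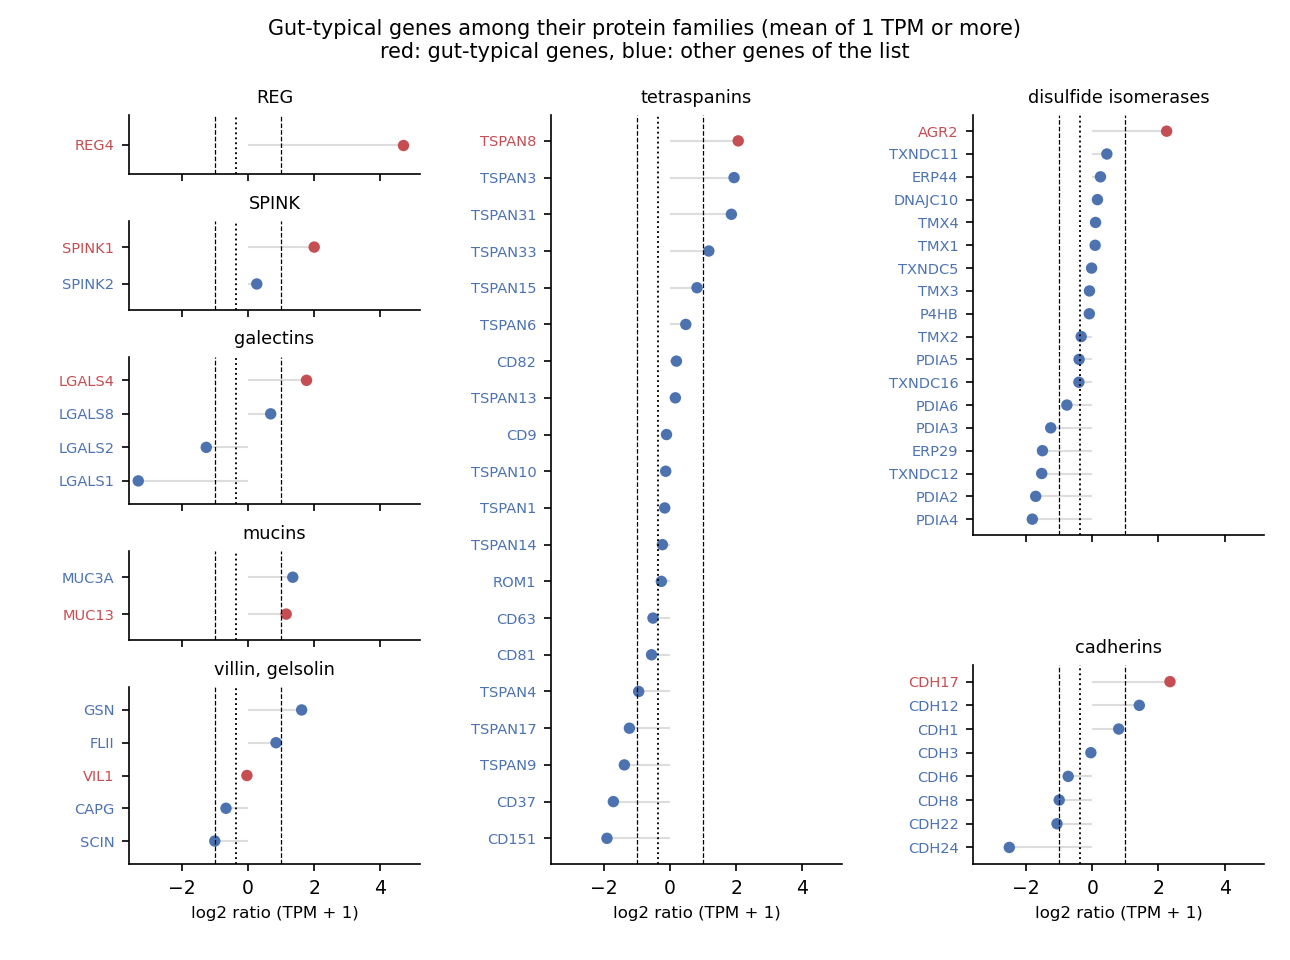
Log2 ratio of TPM + 1 (x axis) of each measured gene in 8 protein families, red for the gut-typical genes and blue for their relatives. Dashed lines mark 1 and -1 and the dotted line the median of all genes at -0.36. AGR2 at 2.25 is the only disulfide isomerase above the upper line, while LGALS4 at 1.77 and LGALS1 at -3.32 lie at opposite ends of the galectins.

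Neighbours along the chromosome lay on both sides of 2-fold. The next RefSeq protein-coding gene that does not overlap was taken on each side, a description added after the data were seen. These were 16 genes outside the set, 10 of them with a mean of 1 TPM, of which 2 were at least 2-fold higher and 3 lower, beside 8.43% and 25.5% of all genes. ADAM30, next to REG4, was listed at 0 in both libraries. AHR, the aryl hydrocarbon receptor next to AGR3, stood at 0.49 and 3.20 TPM. JAKMIP2, next to SPINK1, went the other way at 12.6 and 0.02 TPM (-3.74). ECH1, next to LGALS4, stood at 1286 and 563 TPM (-1.19, within 2-fold after centring) and CNOT9, next to VIL1, at 32.5 and 10.3 TPM (-1.57).

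Transcript composition differed between the 8 measured genes and the rest. The longest annotated transcripts of the 8 had a median GC content of 43.9%, beside 50.5% for all genes, and 7 of the 8 lay below that value, LGALS4 being the exception at 57.9%. The ratios were therefore also centred within bins of GC content. So centred, LGALS4 was at 2.22, REG4 at 4.85, CDH17 at 2.45, AGR2 at 2.35, TSPAN8 at 2.16, SPINK1 at 2.03, MUC13 at 1.33 and VIL1 at 0.066. Each of the 7 genes past 2-fold was higher than as deposited, but centring within bins also takes out the median of all genes. Plain centring on that median gave LGALS4 2.12, which is below its value within bins. The others were higher with plain centring than within bins. They were REG4 at 5.03, CDH17 at 2.71, AGR2 at 2.61, TSPAN8 at 2.42, SPINK1 at 2.36, MUC13 at 1.51 and VIL1 at 0.32.

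Markers of other cell types were read in the same libraries. Of 11 hepatocyte markers 4 were measured, and 3 were at least 2-fold higher, beside 8.43% of all genes. Albumin ALB was at 194 TPM in shCON cells against 1011 TPM in shEIF3F cells, APOH at 2.26 and 34.3 TPM, and TTR at 0.14 and 32.2 TPM. The other measured one, APOA1, was within 2-fold at 4.01 and 3.37 TPM (-0.20). The list summed to 201 TPM in shCON cells against 1083 TPM in shEIF3F cells, while APOB, FGB and FGG were listed at 0 in both. The part of these genes in the result was not tested. Gastric mucosa markers summed to 2.86 and 1.26 TPM, pancreatic acinar markers to 0.25 and 0.05 TPM, Paneth cell markers to 0.28 and 0.54 TPM and endothelial markers to 0.19 and 0.05 TPM, with no gene of these 4 lists at a mean of 1 TPM. The listed acinar markers were near 0 in both libraries, where SPINK1 was at 15.3 and 64.1 TPM, and any link between them was not tested. Enteroendocrine markers summed to 11.6 and 5.40 TPM, with SYP at 11.3 and 2.16 TPM and CHGB at 0.17 and 2.90 TPM. Fibroblast markers summed to 40.5 and 27.0 TPM, immune markers to 7.87 and 6.84 TPM and basal epithelial markers to 2.12 and 6.29 TPM. Of the 10 prostate luminal markers, 6 were at least 2-fold lower (25.5% of all genes) and 1 higher (8.43% of all genes). The higher one was the surface enzyme FOLH1, at 146 and 482 TPM (log2 ratio 1.72). Among the lower ones KLK4 stood at 114 and 10.8 TPM (-3.29), while HOXB13 and TMPRSS2 were within 2-fold after centring (-0.87 and -0.94).

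**Figure D5:**
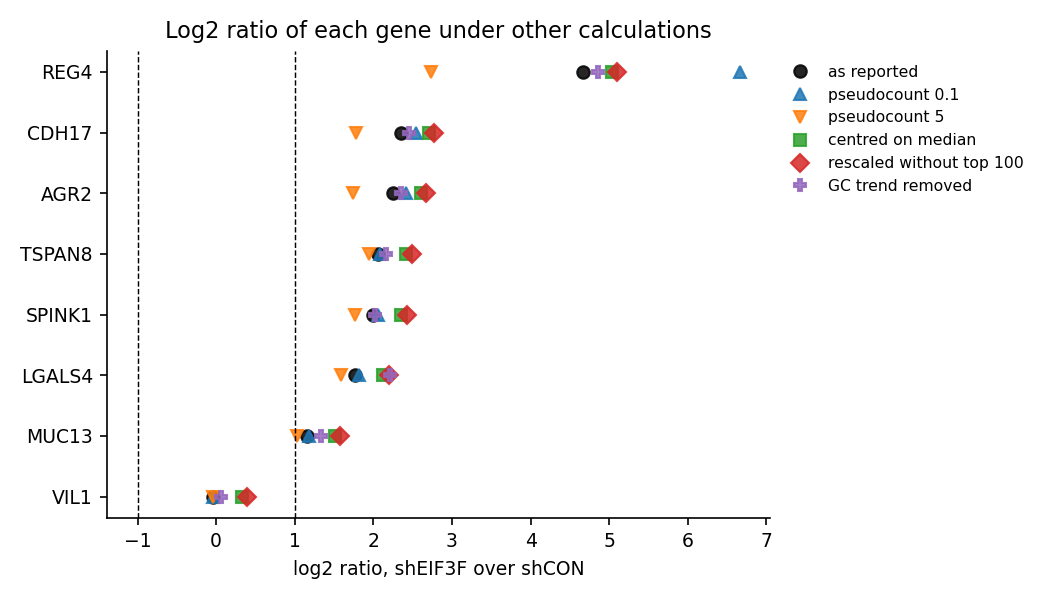
Log2 ratio of each measured gut-typical gene (x axis) as reported and under 5 other calculations, each with its own marker. Dashed lines mark 1 and -1. MUC13 comes nearest to the upper line, at 1.02 with 5 TPM added, and REG4 spreads most, from 2.73 to 6.67.

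The 7 genes stayed past 2-fold under each of the 8 alternatives tried. The range was 1.02 to 1.58 for MUC13, 1.59 to 2.22 for LGALS4, 1.77 to 2.43 for SPINK1, 1.95 to 2.49 for TSPAN8, 1.74 to 2.67 for AGR2 and 1.79 to 2.77 for CDH17. These alternatives reuse the same 2 libraries and do not stand in for replicates.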

How the data were processed

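RNA-seq of 22Rv1 cells gave 1 shCON and 1 shEIF3F library. The deposited values are TPM per gene with 2 decimals, computed by the authors for each library. CASAVA and HISAT2, without versions, and the build hg19 come from the submitters' processing notes. How genes were counted, the annotation, strand use and filters are not stated in any label or header at hand.

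Entries of 1 symbol were summed, and 27 entries with date-like symbols and 6054 small RNA symbols (0.584% of TPM in either library) were left out. Gene type, GC content and exon overlap came from GENCODE release 29, in which 98.7% of symbols were found, and promoters and neighbouring genes from RefSeq on GRCh38.p14. These builds differ from hg19, so no coordinates were joined to the values. A pseudocount of 1 TPM and a minimum mean of 1 TPM were used, with no test.

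Members and lists were chosen with earlier results of these data known. The rule for named genes took the 9 genes, EIF3F and up to 4 others of each gut list and family that were measured (mean of at least 1 TPM) and had the largest absolute log2 ratio. Other genes, among them markers and chromosomal neighbours, were named after their values were seen. Some genes and 1 motif are not reported here. Alternatives were pseudocounts of 0.1 and 5, no minimum, a minimum of 5 TPM, centring, rescaling without the 100 most abundant genes, the most abundant entry per symbol, and GC content in 20 bins (known for 97.9% of genes). Python 3.11.15, NumPy 2.4.6, pandas 2.3.3 and matplotlib 3.10.9 were used, and the ratio and centring steps were tested on simulated data. Simulated shCON levels were all 5 TPM or more, so lower levels, such as those of REG4 and CDH17 in shCON, were not covered.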

Additional observations from a re-analysis of the deposited data

How the results depend on the processing

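The counts of gut-typical genes at least 2-fold higher (7) and lower (0) and their median kept their side of 2-fold under all 8 alternatives. The other minimums and the choice of entry could not change the ratios of the 7 genes. Only the pseudocount of 5 lowered the ratios of the 7 genes. VIL1 moved to 0.32 after centring, 0.40 after rescaling and 0.066 with the GC trend removed. With a pseudocount of 5, the genes outside the set at least 2-fold higher were 0 in the goblet list, 0 in the brush border list, 2 in the surface list and 1 among transcription factors. At that pseudocount 1 brush border gene and 0 surface genes were at least 2-fold lower. With a minimum of 5 TPM, 0 goblet genes were higher and 1 brush border gene lower. The lower brush border genes numbered 1 after centring, and 1 once the GC trend was taken out. The lower surface genes numbered 0 after centring, 0 after rescaling and 1 with the GC trend removed. Over all genes, 3.56% were at least 2-fold higher with a pseudocount of 5, and 11.1% with 0.1. At least 2-fold lower were 1897 genes with a pseudocount of 5, against 3398 as reported. Higher genes numbered 473 with a pseudocount of 5, 1956 after centring, 2051 after rescaling, 1725 with the GC trend removed and 614 at a minimum of 5 TPM, against 1122 as reported. Lower genes numbered 2130 after centring, 2215 after rescaling and 1818 with the GC trend removed. Depth is unknown, so values near 0 carry no detection limit. No paired analysis was possible because each group has 1 library.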
